A study of Mus musculus with 18 samples.

Results

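The genes described here mark the endothelium, the cell layer that lines blood vessels, and were followed in RNA of motor neurons captured by laser from mouse spinal cord. The list held 8 genes: Cldn5, Cdh5, Pecam1, Flt1, Kdr, Tek, Tie1 and Ly6c1. Every probe set whose array annotation gave 1 gene symbol equal to one of them was taken, a step that used no measured value. That gave 10 probe sets of 7 genes, among 12393 genes and 22626 probe sets that were not controls. The Ly6c1 sequence is read by 1 probe set that also carries a second symbol, so Ly6c1 is not analysed here. Of the 10 probe sets, 8 from 6 genes passed a filter on low signal and were tested, and the 1 probe set of Tie1 and 1 of the 2 of Cdh5 did not pass.

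Motor neurons were cut from stained frozen sections of lumbar cord, 1000 per animal, and each animal's RNA was read on 1 array. G93A mice carry the human SOD1 gene with the G93A change, a change that causes inherited motor neuron disease in people, and Control mice were their littermates without the transgene. Groups of 3 animals were sampled at 60, 90 and 120 days of age in each genotype, which gave 18 arrays in 6 groups. The sources used here do not give the strain, the sex or the promoter of the transgene. The labels name no step that removed vessel cells lying against the captured neurons. Fewer vessel cells and less RNA per vessel cell cannot be told apart in such samples.

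Brain and spinal cord endothelium forms the blood-spinal cord barrier. Neighbouring cells are sealed by tight junctions, of which claudin-5 is the main barrier-forming strand protein, and are held together by adherens junctions built on VE-cadherin and by PECAM-1. Vascular endothelial growth factor (VEGF) acts on the receptors Kdr and Flt1. Kdr transmits most of the growth signal, and Flt1 binds VEGF tightly with weaker signalling and, as a soluble form, traps it. Angiopoietins act on the receptor Tek, also called Tie2, with its partner Tie1, and this pair keeps mature vessels quiet. Neurons, glia and pericytes supply the ligands of both receptor families.

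Signals of most of these genes lay near the middle of the array. The median signal of an array ran between 37 and 64, and a probe set was tested where it lay above its array's median on at least 3 of the 18 arrays. Cldn5 lay above the median on 13 arrays, Cdh5 on 11, Flt1 on 13 by the best of its 3 probe sets, Kdr on 10, Tek on 7, Pecam1 on 3 and Tie1 on 0. Of the 10 motor neuron markers with a probe set, 5 lay above the median on all 18 arrays, and the neurofilament gene Nefl had signals of 6044.4 to 26845.7. The transporter gene Slc18a3, a defining marker of cholinergic neurons, was above the median on 0 arrays, with 53.2 as its highest signal. Oligodendrocyte markers were present too, with 9 of 9 genes above the median on at least 9 arrays. No gene of any marker list was listed at 0 on any array.

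Values below are compared as log2 differences, G93A minus Control or later minus earlier age, with the standard error (SE) after ±, and n is 3 mice per group. They were tested with limma over 16565 probe sets, and a change was called at an adjusted p below 0.05. Between genotypes, 0 of the 8 tested probe sets of the endothelial genes were called at 60, 90 or 120 days or in the mean of the 3 ages. The share called among all tested probe sets was 0.688% at 60 days, 0% at 90 days, 0.0241% at 120 days and 0.0121% in the mean. At an unadjusted p below 0.05 stood 0 of the 8 at 60 days, 3 at 90 days, 0 at 120 days and 2 in the mean, against 12.6%, 4.56%, 12.2% and 7.74% of all tested probe sets. The SE of these differences was 0.63 to 1.16 for a single age.

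**Figure D1:**
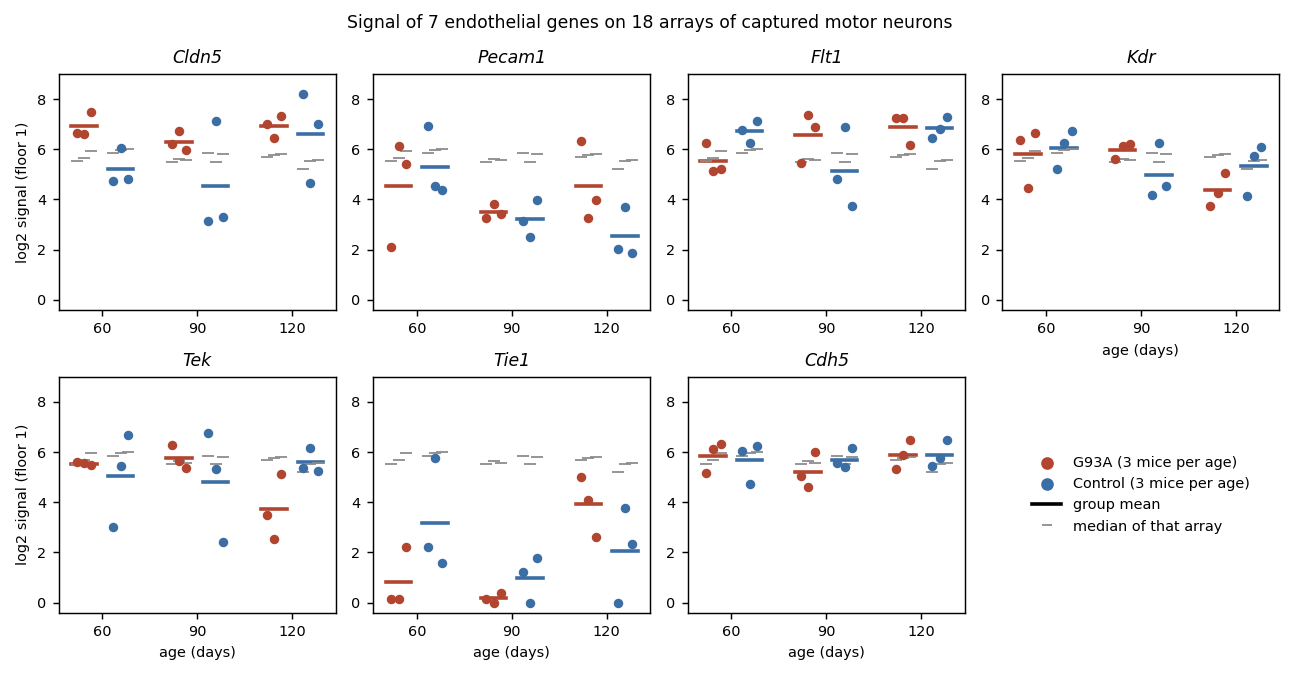
Log2 signal on each array of the 6 tested endothelial genes and of Tie1, by age in days, with G93A mice left of Control mice, each group's mean as a bar and each array's median as a grey dash. The points of a group often spread more widely than the distance between groups, as for Pecam1 at 60 days (signals of 4.3 to 69.1 in G93A, 21.0 to 120.3 in Control).

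Cldn5 encodes claudin-5, the tight junction protein of barrier endothelium, and it had the smallest unadjusted p of the 8 probe sets in the mean genotype difference. At 60 days its signals were 100.1, 97.3 and 180.3 in G93A mice, against 26.3, 66.8 and 28.4 in Control mice. At 90 days they were 73.8, 106.1 and 62.9 in G93A mice, against 8.9, 140.8 and 9.9 in Control mice. At 120 days they were 129.1, 88.1 and 160.0 in G93A mice, against 294.3, 25.4 and 128.5 in Control mice. All 3 G93A arrays were above all 3 Control arrays at 60 days, whereas the groups overlapped at 90 and 120 days. At 90 days Control replicate 2 was high and the other Control arrays were the lowest of the series for this gene.

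The log2 difference of Cldn5 was 1.71 ± 0.85 at 60 days (95% interval -0.04 to 3.47, limma adjusted p = 0.410). At 90 days it was 1.77 ± 0.85 (limma adjusted p = 0.997), and at 120 days 0.31 ± 0.85 (limma adjusted p = 0.922). Averaged over the 3 ages it was 1.26 ± 0.49 with an interval of 0.25 to 2.28, an unadjusted p of 0.0168 and a limma adjusted p of 0.552, so it did not pass the test. Leaving out Control replicate 2 at 90 days made the difference at that age 3.07, and leaving out Control replicate 1 made it 1.08. The 90-day difference therefore depended on single Control arrays, although its sign did not.

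One of the 2 measures of array quality examined, a Gapdh ratio, moved with Cldn5. This log2 ratio between the Gapdh probe sets at the 3′ and 5′ ends of the transcript, which is high where RNA is degraded or shortened in amplification, was 3.88 to 4.63 in G93A and 3.00 to 3.66 in Control at 60 days. At 90 days it was 4.11 to 4.72 in G93A, against 3.10, 4.18 and 2.47 on the 3 Control arrays, of which the second also had the high Cldn5 signal. Across the 18 arrays Cldn5 correlated with this ratio at r = 0.71 (permutation p = 0.00114, adjusted over 12 relations 0.0137) and rho = 0.57 (permutation p = 0.0156, adjusted 0.187), and r was 0.59 without the 2 arrays farthest from the median ratio. Within the 9 G93A arrays r was 0.12, and within the 9 Control arrays it was 0.75. With the ratio as a term in the fit, the Cldn5 difference was 0.73 at 60 days, 0.32 at 90 days and 0.26 in the mean. With the level of the hybridization controls as a term, the differences were 0.67, 1.31 and 0.76. The hybridization-control level itself correlated with Cldn5 at r = -0.10 (permutation p = 0.692, adjusted 0.830) and rho = -0.04 (permutation p = 0.881), with r = 0.53 within the G93A arrays and -0.10 within the Control arrays. Those controls were lower in G93A at 60 days, 7.75 to 10.68, against 10.70 to 11.45 in Control on the log2 scale. Neither measure overlapped between the genotypes at 60 days, so at that age these fits cannot tell the measure and the genotype apart.

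Cdh5 encodes VE-cadherin, the adhesion molecule of endothelial adherens junctions, and it had the smallest spread within groups of the 6 tested genes. At 60 days its signals were 35.5, 69.1 and 79.5 in G93A mice, against 65.9, 26.7 and 75.1 in Control mice. At 90 days they were 32.7, 24.2 and 64.3 in G93A mice, against 46.9, 41.8 and 71.4 in Control mice. At 120 days they were 40.3, 59.3 and 89.3 in G93A mice, against 43.9, 54.9 and 88.6 in Control mice. The genotypes overlapped at every age, and the 6 group means lay between 5.21 and 5.90 on the log2 scale, with a pooled SD within groups of 0.62. The log2 difference at 60, 90 and 120 days was 0.19 ± 0.63, -0.49 ± 0.63 and 0.00 ± 0.63, with limma adjusted p-values of 0.934, 0.997 and 1.00. The mean over the ages was -0.10 ± 0.37, with an interval of -0.85 to 0.65 (limma adjusted p = 0.960). The second Cdh5 probe set lay above the array median on 2 arrays and was not tested, with signals of 1.0 to 98.4 over the 18 arrays.

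Pecam1 encodes PECAM-1, or CD31, an adhesion molecule of endothelial cell borders that platelets and some leukocytes also carry. At 60 days its signals were 4.3, 69.1 and 43.0 in G93A mice, against 120.3, 23.5 and 21.0 in Control mice. At 90 days they were 9.6, 14.0 and 10.7 in G93A mice, against 8.8, 5.7 and 15.8 in Control mice. At 120 days they were 80.2, 9.7 and 15.7 in G93A mice, against 4.1, 12.9 and 3.6 in Control mice. Only 3 arrays were above the array median, namely G93A replicate 2 and Control replicate 1 at 60 days and G93A replicate 1 at 120 days, and the genotypes overlapped at each age. The log2 difference at 60, 90 and 120 days was -0.74 ± 1.16, 0.29 ± 1.16 and 2.00 ± 1.16, with limma adjusted p-values of 0.841, 0.997 and 0.507. Without G93A replicate 1 the difference at 120 days was 1.10. Averaged over the ages it was 0.52 ± 0.67 (limma adjusted p = 0.875).

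Flt1, the VEGF receptor 1, was read by 3 tested probe sets, and they differed in sign. The brightest, 1451756_at, had signals at 60 days of 75.5, 34.8 and 37.3 in G93A mice, against 110.5, 76.9 and 137.9 in Control mice. At 90 days it had 43.4, 163.0 and 118.4 in G93A mice, against 28.1, 117.9 and 13.2 in Control mice. At 120 days it had 150.4, 152.6 and 73.0 in G93A mice, against 88.1, 111.6 and 156.0 in Control mice. At 60 days all G93A arrays lay below all Control arrays, and at 90 and 120 days the genotypes overlapped.

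That Flt1 probe set had log2 differences of -1.19 ± 0.66, 1.42 ± 0.66 and 0.04 ± 0.66 at the 3 ages, with limma adjusted p-values of 0.472, 0.997 and 0.989. The change of its genotype difference with age had an unadjusted p of 0.0329 and a limma adjusted p of 0.331. It was 1 of the 8 probe sets with an unadjusted p below 0.05 in that test, of which 0 were called, beside 13.1% and 0.417% of all tested probe sets. Averaged over the ages the difference was 0.09 ± 0.38 (limma adjusted p = 0.966). With the Gapdh ratio as a term, the difference at 90 days was 0.49. Over the 18 arrays this probe set correlated with that ratio at r = 0.51 (permutation p = 0.0297, adjusted 0.178) and rho = 0.36 (permutation p = 0.140). Within the G93A arrays r was 0.22 (0.215 before rounding), and within the Control arrays it was 0.78.

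The probe set 1454037_a_at ran the other way at 90 days, where its signals were 30.6, 6.6 and 36.7 in G93A mice, against 58.7, 43.7 and 133.1 in Control mice, with no overlap. Its log2 differences at the 3 ages were -0.85, -1.84 ± 0.87 and -0.47. In the mean it was -1.05 ± 0.50, with an unadjusted p of 0.0453 and a limma adjusted p of 0.633. The dimmest probe set, 1419300_at, had signals of 4.7 to 76.0 over the 18 arrays and log2 differences of 0.31, 0.40 and -0.43 at the 3 ages. The sources used here do not give which Flt1 transcripts the 3 probe sets read, the soluble form included.

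Kdr, the VEGF receptor 2, had signals at 60 days of 82.2, 21.8 and 101.0 in G93A mice, against 37.4, 76.4 and 106.0 in Control mice. At 90 days they were 49.5, 69.3 and 73.2 in G93A mice, against 18.3, 76.0 and 23.1 in Control mice. At 120 days they were 13.4, 19.2 and 33.6 in G93A mice, against 17.6, 53.1 and 67.6 in Control mice. The genotypes overlapped at all 3 ages, and the lowest group mean was that of G93A at 120 days. The log2 difference at 60, 90 and 120 days was -0.25 ± 0.78, 0.99 ± 0.78 and -0.96 ± 0.78, with limma adjusted p-values of 0.929, 0.997 and 0.652. The mean over the ages was -0.07 ± 0.45 (limma adjusted p = 0.980).

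Tek, the angiopoietin receptor, had signals at 60 days of 48.0, 47.1 and 44.6 in G93A mice, against 8.1, 43.4 and 103.3 in Control mice. At 90 days they were 78.2, 49.7 and 41.6 in G93A mice, against 108.1, 39.6 and 5.3 in Control mice. At 120 days they were 11.2, 5.8 and 35.1 in G93A mice, against 40.9, 72.0 and 37.6 in Control mice. The 3 G93A arrays lay below the 3 Control arrays at 120 days, by a narrow gap between 35.1 and 37.6, and the genotypes overlapped at the earlier ages. The log2 difference at 60, 90 and 120 days was 0.49 ± 1.00, 0.94 ± 1.00 and -1.87 ± 1.00, with limma adjusted p-values of 0.883, 0.997 and 0.466. Leaving out single arrays moved the value at 120 days between -2.57 and -1.28. The mean difference over the ages was -0.14 ± 0.58 (limma adjusted p = 0.964).

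Tie1, the partner receptor of Tek, was too dim to be tested, with 0 of 18 arrays above the median. Its signals at 60 days were 1.1, 1.1 and 4.7 in G93A mice, against 4.6, 54.5 and 3.0 in Control mice. At 90 days they were 1.1, 0.9 and 1.3 in G93A mice, against 2.3, 0.9 and 3.4 in Control mice. At 120 days they were 31.9, 17.2 and 6.2 in G93A mice, against 0.8, 13.7 and 5.1 in Control mice. The 3 G93A arrays at 120 days were all above the 3 G93A arrays at 90 days, where the signal was close to the floor of 1 set before taking logarithms. In a fit of all probe sets without the filter, its log2 differences between genotypes at the 3 ages were -2.35 ± 1.00, -0.82 ± 1.00 and 1.87 ± 1.00, and the limma adjusted p-values were 0.361, 0.997 and 0.485. Differences this close to the floor turn on a few units of signal.

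**Figure D2:**
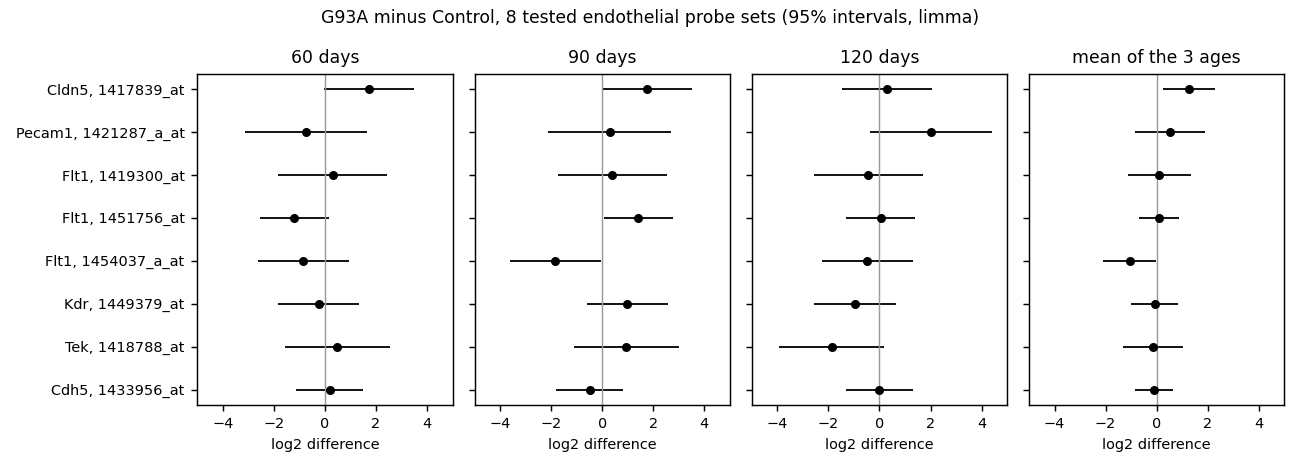
Log2 difference, G93A minus Control, of the 8 tested endothelial probe sets at 60, 90 and 120 days and in the mean of the ages, with 95% intervals from limma. Before adjustment the intervals that leave out 0 are those of Cldn5 and of 2 Flt1 probe sets at 90 days, and of Cldn5 and 1 Flt1 probe set in the mean, and the 2 Flt1 probe sets at 90 days stand on opposite sides of 0.

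Taken gene by gene, with 1 probe set each, the 6 tested genes split evenly at 60 days, with 3 higher and 3 lower in G93A. At 90 days 5 were higher and 1 lower, and at 120 days and in the mean of the ages 3 were higher and 3 lower. Of all tested probe sets 46.4%, 48.8% and 54.5% were higher in G93A at 60, 90 and 120 days, and 51.3% in the mean. The medians of their log2 differences at 60, 90 and 120 days were -0.03, 0.97 and 0.02, beside medians over all 10051 genes of -0.06, 0.00 and 0.07. Over the 3 ages together their median was 0.01, equal to that of all genes. At 90 days the Control arrays were spread more widely than the G93A arrays. The mean log2 level of the 6 genes was 4.60, 5.58 and 4.02 on Control replicates 1, 2 and 3 at 90 days, and between 5.31 and 5.71 on the G93A arrays of that age. Without Control replicate 2 the median at 90 days was 1.40, and with the Gapdh ratio as a term it was 0.13.

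Genotypes without overlap were near the background. At 60 days they numbered 2 of the 8 probe sets, Cldn5 higher and Flt1 lower in G93A, beside 18.5% of all tested probe sets. At 90 and 120 days they numbered 1 of 8 each, 1 probe set of Flt1 and that of Tek, both lower in G93A, beside 11.5% and 16.1%.

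The order of the 6 group means differed from gene to gene. From low to high, Cldn5 ran Control 90, Control 60, G93A 90, Control 120, G93A 60 and G93A 120 days, with means of 4.53 to 6.93 on the log2 scale and a pooled SD of 1.26. Kdr ran G93A 120, Control 90, Control 120, G93A 60, G93A 90 and Control 60 days, with means of 4.36 to 6.07 and a pooled SD of 0.90. Tek ran G93A 120, Control 90, Control 60, G93A 60, Control 120 and G93A 90 days, with means of 3.72 to 5.77 and a pooled SD of 1.33. Flt1 ran Control 90, G93A 60, G93A 90, Control 60, Control 120 and G93A 120 days (5.14 to 6.89, pooled SD 0.88). Pecam1 ran Control 120, Control 90, G93A 90, G93A 120, G93A 60 and Control 60 days (2.52 to 5.29, pooled SD 1.34). Cdh5 ran G93A 90, Control 60, Control 90, G93A 60, G93A 120 and Control 120 days. Of the 40 steps between neighbouring groups over the 8 tested probe sets, 0 were free of overlap and 2 were larger than the pooled SD.

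With age, 0 of the 8 probe sets were called in any of the 6 comparisons within a genotype. Among all tested probe sets, limma called 2% for 120 against 60 days in G93A, 6.71% for 120 against 60 days in Control, 0% for 90 against 60 days in G93A and 1.61% for 90 against 60 days in Control. For 120 against 90 days it called 7.65% in G93A and 1.04% in Control. At an unadjusted p below 0.05 the counts of the 8 were 1, 1, 0, 1, 1 and 2 in that order, beside 16.3%, 24.5%, 5.49%, 14.8%, 21.8% and 13.6% of all tested probe sets. Comparisons without overlap between the ages numbered 1, 2, 0, 1, 2 and 1 of the 8, beside 21.8%, 27.7%, 13.8%, 18.4%, 31% and 17.5%.

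The receptors Kdr and Tek had lower signals in G93A mice at 120 than at 90 days, without overlap. The log2 difference was -1.62 ± 0.78 for Kdr (unadjusted p = 0.0474, limma adjusted p = 0.223) and -2.05 ± 1.00 for Tek (unadjusted p = 0.0516, limma adjusted p = 0.233). Within the 9 G93A arrays Kdr and Tek correlated with the hybridization-control level at r = -0.70 and -0.71, and within the 9 Control arrays at 0.06 and 0.27. In G93A that level was 8.96 to 9.33 at 90 days and 11.34 to 11.99 at 120 days. Age and control level cannot be told apart there. Pecam1 was lower in Control mice at 120 than at 60 days without overlap, by a log2 difference of -2.76 ± 1.16 (unadjusted p = 0.0253, limma adjusted p = 0.141). Flt1 was higher in Control mice at 120 than at 90 days, by 1.71 ± 0.66 (unadjusted p = 0.0157, limma adjusted p = 0.231), and lower at 90 than at 60 days, by -1.58 ± 0.66 (unadjusted p = 0.0243, limma adjusted p = 0.256). Cldn5 was higher in Control mice at 120 than at 90 days by 2.09 ± 0.85 (unadjusted p = 0.0216, limma adjusted p = 0.265). The Flt1 probe set 1451756_at was higher in G93A mice at 120 than at 60 days by 1.37 ± 0.66 (unadjusted p = 0.0489, limma adjusted p = 0.304). The other comparisons without overlap were Tek in G93A at 120 against 60 days (-1.82), Pecam1 in Control at 90 against 60 days (-2.08) and the dimmest Flt1 probe set in Control at 120 days against 60 days (1.51) and 90 days (1.52). None of these passed the limma test. Without Control replicate 2 at 90 days, Cldn5 and Flt1 were called in Control at 120 against 90 days, with log2 differences of 3.39 ± 0.77 (limma adjusted p = 0.0302) and 2.58 ± 0.64 (limma adjusted p = 0.0451), in a fit that called 1.27% of all tested probe sets. Those calls rest on the 2 remaining Control arrays at 90 days, which had the lowest levels of these genes in the series.

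Correlations among the endothelial genes over the 18 arrays were weak and of both signs. Of the 15 pairs among the 6 tested genes, 7 correlated above 0, r ran between -0.32 and 0.47 with a median of -0.05, and 0 pairs passed after adjustment over the 15. The highest was that of the receptors Kdr and Tek, with r = 0.47 (permutation p = 0.048, adjusted 0.587) and rho = 0.36 (permutation p = 0.135). Without the 2 arrays farthest from the median of Kdr, r was 0.45, and without those farthest for Tek it was 0.31. Cldn5 and Flt1 had r = 0.42 (permutation p = 0.078, adjusted 0.587) and rho = 0.21 (permutation p = 0.406). Without the 2 farthest arrays r turned to -0.22, so that relation rested on those arrays. With each array's deviation from its group mean in place of its level, a choice made after seeing the data, Kdr and Tek had r = 0.29 (permutation p = 0.236). The highest pair was then Flt1 and Kdr (r = 0.47, permutation p = 0.0471, adjusted 0.387) and the lowest Pecam1 and Kdr (r = -0.47, permutation p = 0.0515, adjusted 0.387), and 0 of the 15 pairs passed after adjustment.

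**Figure D3:**
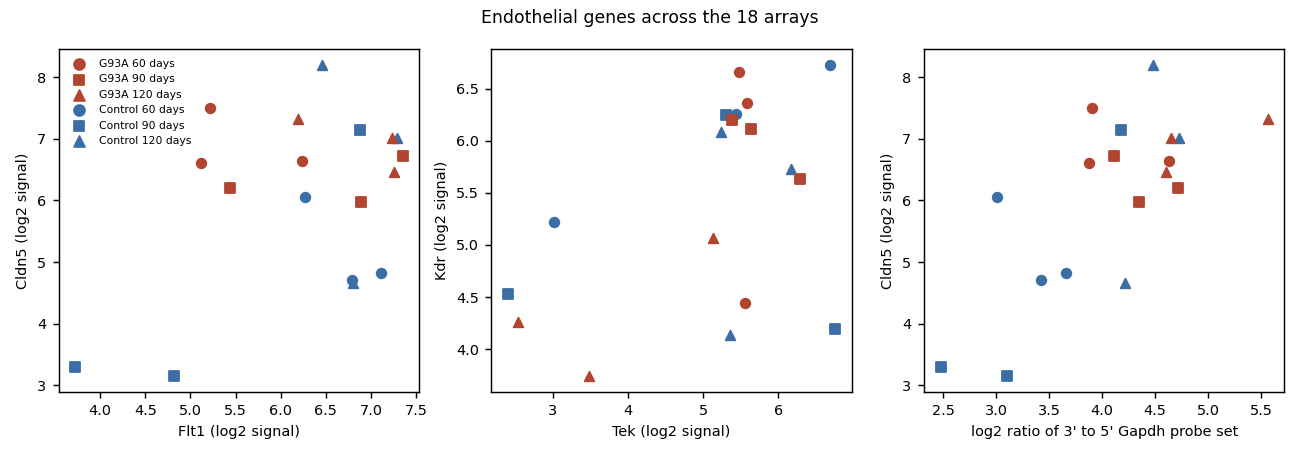
Log2 signals over the 18 arrays for Cldn5 against Flt1, for Kdr against Tek, and for Cldn5 against the log2 Gapdh ratio (3′ over 5′ probe set), with G93A and Control arrays marked. In the last panel the 2 lowest Cldn5 signals, 8.9 and 9.9 in Control mice at 90 days, stand at ratios of 3.10 and 2.47.

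The genes whose log2 signals followed each endothelial gene most closely over the 18 arrays came from a search of 10045 genes, and the values describe these arrays with no test. For Cldn5 they were Prpf6, a splicing factor gene (r = 0.86), and Kcnj10, which encodes an inward rectifier potassium channel abundant in glia (r = 0.83). For Kdr they were Cers2, a ceramide synthase gene (r = 0.80), and Cd14, a receptor gene of myeloid cells (r = 0.79). For Cdh5 they were Igfbp6 (r = 0.83), which encodes a binding protein of insulin-like growth factors, and Sin3a (r = 0.82), a transcriptional corepressor gene. For Pecam1 they were Scnn1b and Arpc2 (both r = 0.85), for Flt1 Dnaja3 (r = 0.81) and Zmiz2 (r = 0.78), and for Tek Gmppb and Lin7c (both r = 0.81). The arrays share depth of signal and RNA quality as sources of such likeness, and their part was not tested.

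A longer list of endothelial and barrier genes was measured beside the 8. Of its 42 genes 38 had a probe set, 30 were tested, and 0 were called between genotypes at any age or in the mean, with median log2 differences of -0.08, -0.09 and 0.24 at the 3 ages. The smallest p in the mean of the ages was that of Tjp1, which encodes the tight junction scaffold ZO-1 of endothelium, epithelium and glia (0.72 ± 0.21, limma adjusted p = 0.396). The next was Slco1a4, an organic anion transporter of the barrier. Its signals at 60 days were 376.8, 221.2 and 119.4 in G93A mice, against 24.5, 60.5 and 20.8 in Control mice, without overlap. Its log2 difference at that age was 2.78 ± 0.85 (limma adjusted p = 0.130), and in the mean it was 1.32 ± 0.49 (limma adjusted p = 0.548). The third, Itm2a, a membrane protein gene enriched in brain vessels, had -0.58 ± 0.21 in the mean. Like Cldn5, both Tjp1 and Slco1a4 were higher in G93A at 60 days on all arrays, and like it neither passed the test. They were named for their small p, and of the 30 tested genes 13 were higher and 17 lower in G93A at that age. Among all tested probe sets, 18.5% had no overlap between genotypes at 60 days.

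A further list of 24 vessel signalling genes held VEGF and angiopoietin ligands, receptors and co-receptors. It also held genes of other signalling, among them Notch1, Notch4, Dll4, Jag1, Hey1, Kit, Acvrl1, Efnb2, Ephb4, Hif1a, Ctnnb1, Ctnnd1 and Jup. Of the 24 genes, 23 had a probe set, 16 were tested and 0 were called between genotypes. Their median log2 differences at 60, 90 and 120 days were 0.48, 0.34 and 0.03. The VEGF receptor 1 ligand gene Vegfb had 1.10 ± 0.53 in the mean (unadjusted p = 0.049), which did not pass after adjustment. Of the 10 tested genes of pericytes and smooth muscle, the cells that wrap the endothelium, 0 were called between genotypes, with a median of 0.08 in the mean. Of the 14 tested basement membrane and fibroblast genes 0 were called, with a median of 0.41, and of the 11 tested blood cell genes 0 were called, with a median of 0.47. The median over all genes in the mean of the ages was 0.01.

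Age calls did occur among these lists, most of them in G93A mice at 120 against 90 days. On that contrast limma called 4 of the 30 tested endothelial and barrier genes and 3 of the 16 tested vessel signalling genes. Those 3 were Acvrl1, Hif1a and Ctnnb1, none of them a VEGF or angiopoietin ligand, receptor or co-receptor. Limma also called 2 of the 10 pericyte and smooth muscle genes, 0 of the 14 basement membrane and fibroblast genes and 0 of the 11 blood cell genes. Of all tested probe sets, 7.65% were called. Pdgfrb, the platelet-derived growth factor receptor that marks pericytes, had signals of 1046.2, 741.6 and 333.9 in G93A mice at 120 days, against 72.8, 129.5 and 105.2 at 90 days. In Control mice it had 101.5, 422.6 and 810.6 at 120 days, against 39.4, 91.4 and 34.7 at 90 days. It rose by a log2 difference of 2.68 ± 0.56 in G93A (limma adjusted p = 0.00446) and 2.71 ± 0.56 in Control (limma adjusted p = 0.0173). The G93A call held without each of the 18 arrays, whereas the Control call was lost without Control replicate 1 or 3 at 90 days or replicate 2 or 3 at 120 days, with values between 2.05 and 3.55 over its alternatives. The genotype difference of Pdgfrb in the mean of the ages was 0.70 ± 0.32 and did not pass.

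Acta2, the smooth muscle actin gene, had signals of 972.3, 558.9 and 405.7 in G93A mice at 120 days, against 171.2, 184.8 and 233.4 at 90 days. It rose by 1.63 ± 0.40 (limma adjusted p = 0.0118). In Control mice it had 319.5, 464.8 and 428.1 at 120 days, against 95.2, 248.2 and 125.4 at 90 days, also without overlap, and the difference of 1.47 ± 0.40 was not called (limma adjusted p = 0.0674). In Control mice it was lower at 90 than at 60 days, with a called difference of -1.92 ± 0.40 (limma adjusted p = 0.0156). The glucose transporter gene Slc2a1, carried by barrier endothelium and glia, rose in G93A at 120 against 90 days by 1.19 ± 0.36 (limma adjusted p = 0.0449), and its other 2 tested probe sets by 2.15 ± 0.39 and 2.61 ± 0.72 (limma adjusted p = 0.00182 and 0.0262). Abcb1a, which encodes the efflux pump P-glycoprotein, rose by 1.43 ± 0.42 on the same contrast (limma adjusted p = 0.0367), while its other probe set had -0.42. Itm2a fell by 1.38 (limma adjusted p = 0.0225). The transferrin receptor gene Tfrc fell by 1.50 (limma adjusted p = 0.0324), with -0.04 on its other probe set.

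On the same contrast Acvrl1, an endothelial receptor of bone morphogenetic proteins, rose by 3.23 ± 1.01 (limma adjusted p = 0.0495). Hif1a, the hypoxia-responsive transcription factor gene, fell by 2.10 (limma adjusted p = 0.0280), and the beta-catenin gene Ctnnb1 fell by 1.95 (limma adjusted p = 0.0143). Against 60 days, Pdgfrb rose in G93A at 120 days by 2.28 ± 0.56 (limma adjusted p = 0.0342) and Hif1a fell by 2.43 (limma adjusted p = 0.0323). Many cell types of the cord express Hif1a, Ctnnb1, Slc2a1 and Tfrc. In Control mice the differences at 120 against 90 days were 0.10 for Slc2a1, 0.70 for Abcb1a, -0.43 for Itm2a, -0.67 for Tfrc, -0.11 for Acvrl1, -1.02 for Hif1a and -0.03 for Ctnnb1, with limma adjusted p-values of 0.465 to 0.989. A limma F test over the 3 ages asked whether G93A and Control mice followed different courses. It called 0 of the 30 endothelial and barrier genes (lowest limma adjusted p = 0.286). It also called 0 of the 16 vessel signalling genes (lowest 0.147) and 0 of the 10 pericyte and smooth muscle genes (lowest 0.325). The step from 90 to 120 days was not compared between genotypes on its own.

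Of the 13 calls in the lists of vessel genes, 11 were age changes in G93A, and all 11 of those were lost with the hybridization-control level as a term. With empirical Bayes moderation without a trend 10 of the 13 were lost, and the calls that held were those of Abcb1a, Acvrl1 and Pdgfrb in G93A at 120 against 90 days. With the Gapdh ratio as a term 6 were lost, with each array centred on its median 5, with quantile normalization 4, with only the arrays of the groups compared 4, and without the filter 2. Several calls also depended on single arrays. Over the alternatives run, Acvrl1 kept its call in 7 of 27, Slc2a1 in 13 of 28 and Ctnnb1 and Acta2 in 24 of 28 for the 120 against 90 day contrast. Slc2a1 lost it without any of 9 single arrays and Acvrl1 without any of 13, with values of 0.47 to 1.40 and 1.76 to 3.90 over all alternatives. Abcb1a (1.19 to 1.60) lost it without any 1 of the 3 G93A arrays at 90 days or without G93A replicate 1 or 3 at 120 days. Itm2a (-1.58 to -0.97) lost it without G93A replicate 1 or 3 at 90 days or replicate 1 or 2 at 120 days. Tfrc (-1.76 to -0.93) lost it without any 1 of the 3 G93A arrays at 90 days or replicate 1 at 120 days. Hif1a (-2.68 to -1.20) lost it without G93A replicate 2 or 3 at 90 days or replicate 1 or 3 at 120 days. Against 60 days, the call of Hif1a (-3.01 to -1.67) was lost without G93A replicate 1 or 2 at 60 days or 1 or 3 at 120 days, and that of Pdgfrb (1.92 to 2.74) without any 1 G93A array at 60 days or replicate 1 or 2 at 120 days. The Control call of Acta2 (-2.35 to -1.62) was lost without Control replicate 3 at 60 days or replicate 1 at 90 days. In G93A at 120 against 90 days, the calls of Ctnnb1 (-2.29 to -0.35) and Acta2 (1.29 to 2.15) were lost without G93A replicate 1 at 90 days or G93A replicate 1 at 120 days, and with the hybridization-control level as a term. With that term the 120 against 90 day difference in G93A was -0.35 for Ctnnb1, 2.15 for Acta2 (limma adjusted p = 0.133), 2.87 for Pdgfrb (limma adjusted p = 0.179) and 0.47 for Slc2a1. The control level was 11.34 to 11.99 in G93A at 120 days, against 8.96 to 9.33 at 90 days and 7.75 to 10.68 at 60 days. It did not overlap between 120 days and either earlier age, so that fit cannot tell control level and age apart. A call lost with this term therefore does not decide between them. Beyond that fit the part of the control level in these calls was not tested.

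Age changes were also called among the blood genes and the markers of other cells, in 23 of the 38 calls made over all the lists. In G93A mice at 120 against 90 days, the motor neuron genes for neurofilament heavy chain (Nefh), peripherin (Prph) and the synaptic protein Snap25 fell by 2.22, 1.64 and 1.82 (limma adjusted p = 0.00198, 0.0174 and 0.0131). Of the astrocyte markers, the filament gene Gfap rose by 2.61 ± 0.57 and Aldoc by 1.40 ± 0.32, while S100b fell by 1.41 (limma adjusted p = 0.00581, 0.00836 and 0.0293). The microglial receptor gene Csf1r rose by 2.95 ± 0.40 and the adaptor gene Tyrobp by 3.76 ± 0.58 (limma adjusted p = 0.000259 and 0.000601), and the myelin gene Mbp by 1.22 ± 0.38 (limma adjusted p = 0.04995). Against 60 days in G93A, Gfap rose by 3.29 ± 0.57, Csf1r by 2.65 ± 0.40 and Tyrobp by 2.94 ± 0.58 (limma adjusted p = 0.00551, 0.00186 and 0.0120).

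In Control mice at 120 against 60 days, the neutrophil gene S100a8 fell by 2.75, and it was the single blood cell gene called (limma adjusted p = 0.0107). On that contrast the microglial genes Tyrobp and Ctss rose by 3.25 ± 0.58 and 2.07 ± 0.35, while C1qa and Cx3cr1 fell by 2.09 and 2.06 (limma adjusted p = 0.00174, 0.00119, 0.0102 and 0.0317). The myelin genes Mbp and Mobp rose by 1.31 ± 0.38 and 3.06 ± 0.76 (limma adjusted p = 0.0390 and 0.0187). At 120 against 90 days in Control, Tyrobp rose by 2.68 ± 0.58, Csf1r by 1.83 ± 0.40 and Aldoc by 1.34 ± 0.32, and C1qa fell by 2.05 (limma adjusted p = 0.0228, 0.0253, 0.0420 and 0.0348). Of the 38 calls, 26 were lost with the hybridization-control term, 24 without a trend in the moderation and 19 with the Gapdh term. Mbp in G93A kept its call in 8 of 28 alternatives and Aldoc in Control in 11 of 28, whereas Csf1r in G93A on both contrasts and Tyrobp in Control at 120 against 60 days kept theirs in all 28. These alternatives did not include another probe set of the same gene. Of the 23 age calls, 8 held without each of the 18 arrays, namely those of Nefh, of Gfap on both contrasts, of Csf1r on both in G93A, of Tyrobp in G93A at 120 against 90 days and in Control at 120 against 60 days, and of Ctss. The other 15 were lost without at least 1 single array. Other probe sets of the same gene differed in size or sign for Prph (-0.86 to 0.42), S100b (-0.21) and Mbp (-1.11 to 2.20 in G93A, -0.30 to 2.43 in Control). Sizes also differed for Mobp in Control (1.02) and, against 60 days in G93A, for Gfap (1.35), neither called. Against 90 days in G93A, Gfap had 2.48 and was called. The other probe sets of Csf1r in G93A had 2.95 and 1.20 against 60 days, and 2.24 and 1.70 against 90 days. Of these, only 2.95 and 2.24 were called. In Control at 120 against 90 days Csf1r had 1.85 and 0.32, neither called. Aldoc had 1.36 in G93A and 1.46 in Control, neither called.

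**Figure D4:**
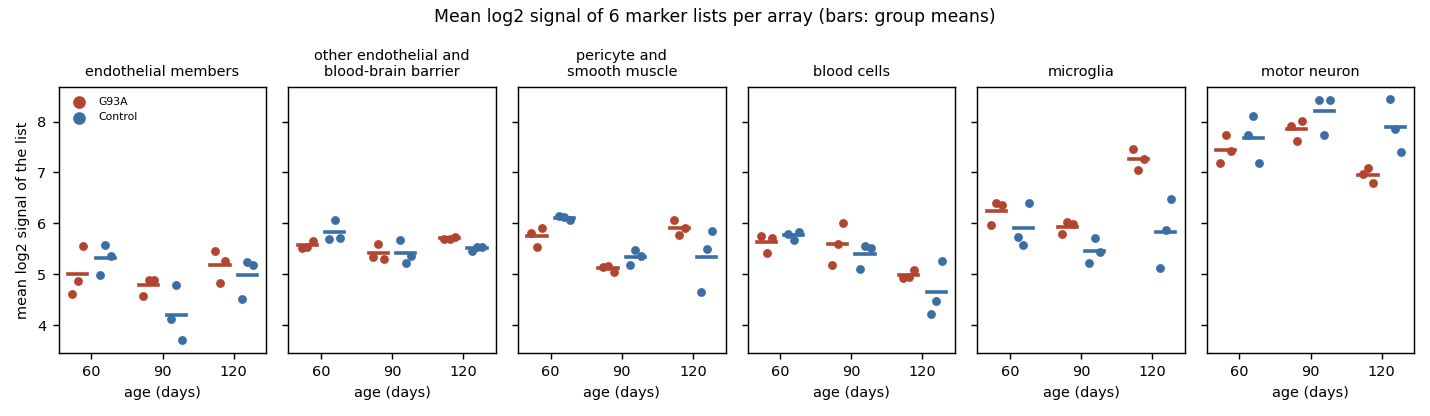
Mean log2 signal per array of the 7 endothelial genes and of 5 marker lists, by age in days, with G93A left of Control and group means as bars. The endothelial group means lay between 4.20 and 5.31, while the microglial mean at 120 days was 7.26 in G93A and 5.82 in Control, and the motor neuron mean was 6.95 in G93A and 7.90 in Control.

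The summed signal of the 7 endothelial genes overlapped between genotypes at each age. At 60 days it was 340.3 to 490.4 in G93A and 368.2 to 474.7 in Control. At 90 days it was 288.3 to 427.2 in G93A and 142.1 to 422.7 in Control, and at 120 days 351.9 to 456.5 in G93A and 343.6 to 489.7 in Control. The microglial sum at 120 days, over 12 genes, was 9418.7 to 16392.4 in G93A, against 3563.5 to 5987.8 in Control, and the motor neuron sum, over 10 genes, was 9196.7 to 16906.9 in G93A, against 14850.2 to 29218.9 in Control. These linear sums weigh the brightest genes most: Csf1r reached 13708.2, and Nefl ran from 6044.4 to 26845.7. By gene at 120 days, 10 of 10 tested microglial genes were higher in G93A (median 1.47) and 7 of 8 motor neuron genes lower (median -0.83), with 0 called in either list. The microglial gene Tyrobp was the only gene of the 10 lists called between genotypes, higher in G93A at 60 days by 2.81 ± 0.58 (limma adjusted p = 0.0227) and in the mean by 2.25 ± 0.34 (limma adjusted p = 0.0100). The first call (2.04 to 3.56 over its alternatives) was kept in 22 of 28, and was lost without G93A replicate 1 or 2 at 60 days. It was also lost with the hybridization-control term, with the Gapdh term, without a trend in the moderation and with only the arrays of the groups compared. The second (1.82 to 2.61) was kept in 24 of 27. It was lost without G93A replicate 2 at 120 days, with the Gapdh term and without a trend. Whether the levels of the other cell types bear on the endothelial values was not tested.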

How the data were processed

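Each array held RNA of the motor neurons of 1 mouse. The deposited values are signal intensities on a linear scale, 1 per probe set, and were produced by MAS5 (per the submitters' processing notes), in a version that the sources used here do not name. Signals under 1 were set to 1 (965 of 408420 values) and put on the log2 scale, with no further normalization. The 64 control probe sets were left out. Of the others, 20380 carry 1 gene symbol, 691 several and 1555 none. Probe sets above their array's median on at least 3 of 18 arrays were tested. Detection calls were not used here, and no probe or protein sequence is printed.

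The 6 group means were fitted over all 18 arrays with limma 3.58.1 in R 4.3.3 (12 residual degrees of freedom), with empirical Bayes moderation and a trend in the mean level. P-values are two-sided and Benjamini-Hochberg adjusted over 16565 probe sets within each of 11 comparisons. Where a gene had several tested probe sets, the one with the highest mean stands for it. Correlations used 100000 two-sided permutations and leave the groups unmodelled. The number of arrays limits the precision, and an exact permutation test of 3 against 3 cannot go below 0.1. The fit was tested on simulated data.

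All endothelial genes are named. Of each other list, the genes named were those called in any comparison and up to 3 of smallest p in the mean genotype difference. The endothelial genes and all lists were chosen with earlier results of these data known. The mice are numbered separately in the labels, so the spread is between animals. Alternatives changed the filter, floor, scaling, covariates, moderation, samples, probe set and replicate block. Those for the other lists and for the scaling of correlations were added after the data were seen.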

Additional observations from a re-analysis of the deposited data

How the results depend on the processing

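No endothelial probe set passed the test between genotypes under any alternative run: of 238 gene differences under settings other than leaving out an array, 216 kept their sign and 22 changed it (limma adjusted p 0.288 to 1), and of 432 with 1 array left out, 403 kept it and 29 changed it (limma adjusted p 0.134 to 1). Of 306 recomputed counts of calls, 304 were unchanged. The exceptions were 1 call without the filter, Tie1 at 120 against 90 days in G93A (3.74 ± 1.00, limma adjusted p = 0.0288, where 5.07% of 22626 probe sets were called), and a range of 0 to 2 calls in Control at 120 against 90 days with 1 array left out, the 2 being Cldn5 and Flt1 without Control replicate 2 at 90 days. The median over the 6 genes at 60 days was 0.60 with the hybridization-control level as a term and -0.35 to 0.48 with 1 array left out. At 90 days it was 0.13 with the Gapdh ratio as a term and 0.69 to 1.40 with 1 array left out, at 120 days -0.37 to 0.27, and in the mean -0.08 to 0.26. Signs changed as follows. With the Gapdh term, Cldn5 at 120 days was -0.28, Pecam1 at 60 days 0.31, Flt1 at 120 days -0.34 and in the mean -0.56, Kdr at 90 days -0.0561, and Tek -0.45 at both 60 and 90 days. With the hybridization-control term, Pecam1 at 60 days was 0.70, Flt1 in the mean -0.31, and Cdh5 0.0033 at 120 days and 0.0647 in the mean. With arrays centred on their medians, Cldn5 at 120 days was -0.0125 and Flt1 -0.28, with quantile normalization Flt1 at 120 days was -0.11, and with a pseudocount of 16 Cdh5 at 120 days was 0.0024. With another probe set, Flt1 was 0.31 at 60 days, -1.84 at 90 days, -0.43 or -0.47 at 120 days and -1.05 in the mean, and Cdh5 was -1.30 at 60 days and 0.61 at 120 days. With 1 array left out, Cdh5 spanned -0.28 to 0.54 at 60 days, -0.29 to 0.28 at 120 days and -0.26 to 0.0181 in the mean, Cldn5 -0.67 to 1.10 at 120 days, and Flt1 -0.15 to 0.39 at 120 days and -0.15 to 0.38 in the mean. Kdr spanned -0.67 to 0.44 at 60 days and -0.27 to 0.16 in the mean, Pecam1 -1.52 to 0.48 at 60 days and -0.063 to 0.67 at 90 days, and Tek -0.52 to 1.31 at 60 days, -0.26 to 1.91 at 90 days and -0.55 to 0.18 in the mean. Apart from those terms and probe sets, the causes of these changes were not tested. Same-numbered arrays did not deviate together (r -0.12 to 0.06 over 9 pairs), the numbers pair no animals in the labels, and the replicate block changed no call of an endothelial gene (Cldn5 at 60 days, limma adjusted p = 0.431). Of the 38 calls in the other lists it ended 3, those of Acvrl1 (limma adjusted p = 0.0617) and Mbp (0.0595) in G93A and of Aldoc (0.0588) in Control at 120 against 90 days. Centring arrays moved the median of all genes to 0.17, 0.15 and -0.25 at 60, 90 and 120 days. Signals near the floor, as for Tie1, Pecam1 and Acvrl1, limit what can be seen.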
